A study of Homo sapiens with 12 samples.

Results

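10 genes of the lipid droplet were followed in 2 human acute myeloid leukemia lines after honokiol: the coat proteins PLIN2, PLIN3, PLIN4 and PLIN5, the lipolysis regulators HILPDA, G0S2 and ABHD5, and the lipases PNPLA2, LIPE and MGLL. They were 10 of the 36866 genes in the deposited table and were chosen by gene name, as droplet coats, their regulators and triglyceride lipases. The list was drawn up with the levels of all 4 groups already known. The values of the 10 genes, between treatments and between lines, are therefore a description, with no p-value, and counts of genes past a threshold are set beside the share over all genes with nothing read from them. Poly(A) mRNA was sequenced from THP-1 and U-937 cells, each kept for 24 h with honokiol, a biphenol from magnolia bark, or with 0.1% DMSO, its solvent. Each of the 4 groups had 3 libraries, and both lines carry a complex karyotype per the labels. The labels list 20 and 35 µM honokiol without saying which line received which dose. The paper used 20 µM for THP-1 and 35 µM for U-937 in its 24 h cell-cycle assay. It used the same doses in a 24 h viability assay with an HMOX1 inhibitor and in a qPCR of ferroptosis genes. Its sequencing methods name no dose. A difference between the lines under honokiol therefore cannot be told apart from a difference in dose. Each line is 1 cell line, and the general statement of the methods that experiments were repeated does not say whether the 3 libraries of a group came from separate cultures, so the p-values of the other genes measure the spread between these libraries, which may be technical.

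A lipid droplet stores triglycerides and sterol esters in a core that is wrapped by a phospholipid monolayer and by coat proteins. Perilipins are such coats and limit the access of lipases to the core. The stored triglyceride is taken apart in order by PNPLA2 (ATGL), LIPE (hormone-sensitive lipase) and MGLL (monoacylglycerol lipase), each of which releases a fatty acid. ABHD5 (CGI-58) activates PNPLA2, while G0S2 and HILPDA inhibit it. Macrophages and monocytic cells use the same machinery as adipocytes, with PLIN2 in place of PLIN1 as their main coat.

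The summed estimated counts ran from 57406966 to 75065752 per library. DMSO replicate 1 stood apart in both lines, with 13.7% (THP-1) and 12.6% (U-937) of the counts from mitochondrial genes, while the other 10 libraries had 5.61% to 7.55%. Myeloid markers fitted the labelled cells, with 10 of 10 above 0 in every library of every group. Their summed FPKM (fragments per kilobase of transcript, scaled to library size) was 500 to 813 in THP-1 DMSO, 463 to 632 in THP-1 honokiol, 481 to 789 in U-937 DMSO and 408 to 482 in U-937 honokiol, and the part of these shifts in the results was not tested. MPO did not exceed 0.17 FPKM in U-937. The labels speak of adipose material in the extraction, but the 6 adipocyte markers summed to at most 0.28 FPKM in any library and ADIPOQ had no row. Markers of other blood and tissue cells summed to 1.13 to 2.44 FPKM.

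The 4 perilipin promoters are shown because PLIN2, PLIN4 and PLIN5 were the coats with higher levels under honokiol, while PLIN3 was the coat without such a difference. The bases before the RefSeq start (GRCh38.p14, minus strand, 5′ to 3′) run from position -250 toward the start, and bases inside an annotated exon of the same gene were left out. Capitals mark matches to the motifs named after the sequences.
PLIN2 (chr9:19127577-19127742): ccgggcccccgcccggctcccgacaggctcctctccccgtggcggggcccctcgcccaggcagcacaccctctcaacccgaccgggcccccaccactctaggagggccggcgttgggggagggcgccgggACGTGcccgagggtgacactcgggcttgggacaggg
PLIN4 (chr19:4518487-4518736): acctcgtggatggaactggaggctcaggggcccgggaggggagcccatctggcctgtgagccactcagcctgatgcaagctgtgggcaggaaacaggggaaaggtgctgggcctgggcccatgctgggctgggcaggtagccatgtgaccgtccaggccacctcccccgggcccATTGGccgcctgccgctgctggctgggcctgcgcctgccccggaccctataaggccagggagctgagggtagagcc
PLIN5 (chr19:4535225-4535474): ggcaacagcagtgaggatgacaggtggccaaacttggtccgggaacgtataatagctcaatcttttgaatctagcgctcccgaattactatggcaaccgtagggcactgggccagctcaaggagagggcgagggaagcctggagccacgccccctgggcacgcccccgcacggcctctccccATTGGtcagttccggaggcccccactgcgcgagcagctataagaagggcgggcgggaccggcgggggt
PLIN3 (chr19:4867769-4867917): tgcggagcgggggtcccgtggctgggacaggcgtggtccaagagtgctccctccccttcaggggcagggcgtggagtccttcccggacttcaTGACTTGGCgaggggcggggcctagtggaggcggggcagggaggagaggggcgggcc

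The motifs were searched on both strands in the 250 bases before the start of each of 35116 RefSeq promoters. PLIN2 held the hypoxia response core ACGTG at -120 to -116, a motif present in 18.5% of all promoters. It also held the E box CACGTG at -69 to -64, which overlaps a further ACGTG match and lies in the part not printed, and which 6.34% of all promoters held. PLIN4 and PLIN5 each held CCAAT on the reverse strand, read above as ATTGG, and so did PLIN3 at -77 to -73, in its part not printed. CCAAT was present in 32% of all promoters. PLIN3 also held the antioxidant response core TGACNNNGC, which 10.9% held. None of the 11 promoters found for 8 of the 10 genes held the hexamer AGGTCA as a direct repeat spaced by 1 or by 4 bases, which 0.0171% and 0.0142% of promoters held. HILPDA and MGLL had no entry. The GC content of the PLIN2 window was 78.0%, against a median of 58.0% over all promoters. A match or its absence describes the letters of these windows.

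PLIN2, the coat of droplets in cells other than fat cells, was the coat that differed most by treatment. In THP-1 its level was 24.4, 16.3 and 35.4 FPKM in the 3 DMSO libraries and 101, 117 and 157 FPKM in the 3 honokiol libraries. In U-937 it was 10.0, 29.1 and 6.83 FPKM with DMSO and 86.1, 139 and 330.3 FPKM with honokiol. The lowest honokiol library exceeded the highest DMSO library 2.85 times in THP-1 and 2.96 times in U-937, so the treatments did not overlap. The mean level was 4.93 times as high in THP-1, a log2 difference of 2.25 ± 0.296 (SE, n = 3 per group), and 12.1 times as high in U-937, with a log2 difference of 3.52 ± 0.682 (SE, n = 3 per group). In bulk RNA, a message in more cells and more message per cell cannot be told apart. Leaving out 1 library at a time, DMSO replicate 1 included, gave log2 differences of 1.996 to 2.52 in THP-1 and 2.78 to 4.35 in U-937, where the libraries were widely spread. PLIN2 is on chromosome 9, from 19108375 to 19149290 on the minus strand (the coordinates of the table match GRCh38).

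PLIN3, a coat that moves from the cytosol onto young droplets, did not follow PLIN2. THP-1 had 31.3, 46.3 and 45.2 FPKM with DMSO and 42.8, 41.3 and 46.0 FPKM with honokiol. U-937 had 37.4, 46.8 and 46.6 FPKM with DMSO and 33.1, 39.5 and 54.1 FPKM with honokiol. The libraries overlapped in both lines, and the log2 differences were 0.04 ± 0.146 in THP-1 and -0.13 ± 0.194 in U-937 (SE, n = 3 per group).

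PLIN4, a coat with a long repeat that is best known from fat and muscle, was low throughout. It shares 32 exon bases with HDGFL2 on the opposite strand, a gene listed at up to 29.01 FPKM. Whether reads of HDGFL2 were counted for PLIN4 was not tested. The PLIN4 level in THP-1 was 0.41, 0.53 and 0.41 FPKM with DMSO and 0.65, 0.94 and 0.75 FPKM with honokiol. In U-937 it was 0.79, 0.85 and 0.74 FPKM and then 1.41, 1.48 and 2.29 FPKM. The groups did not overlap in either line. The log2 differences were 0.74 ± 0.253 in THP-1 and 1.04 ± 0.250 in U-937 (SE, n = 3 per group). A fit needed 0.5 FPKM in at least 3 libraries. In THP-1 PLIN4 met this limit only with its honokiol libraries, so its difference there was favoured by the limit.

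PLIN5, the coat of tissues that burn fatty acids and a tether of droplets to mitochondria, was about as low as PLIN4 in THP-1 and lower in U-937. In THP-1 it was at 0.33, 0.45 and 0.48 FPKM with DMSO and 0.88, 1.40 and 1.29 FPKM with honokiol, a log2 difference of 1.44 ± 0.272 (SE, n = 3 per group). In U-937 it was at 0.09, 0.06 and 0.08 FPKM with DMSO and 0.38, 0.15 and 0.18 FPKM with honokiol, under the limit of 0.5 FPKM in at least 3 libraries that a gene needed for a fit. The groups did not overlap in either line. In THP-1 the gene passed that limit through its honokiol libraries alone, so a difference there was built in. PLIN5 shares 1047 exon bases with AC011498.4 on the same strand, a gene listed at up to 1.75 FPKM, so how its reads were divided is uncertain. PLIN4, PLIN5 and PLIN3 lie in this order on the minus strand of chromosome 19, with 4065 bases between PLIN4 and PLIN5 and 303116 bases between PLIN5 and PLIN3.

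**Figure D1:**
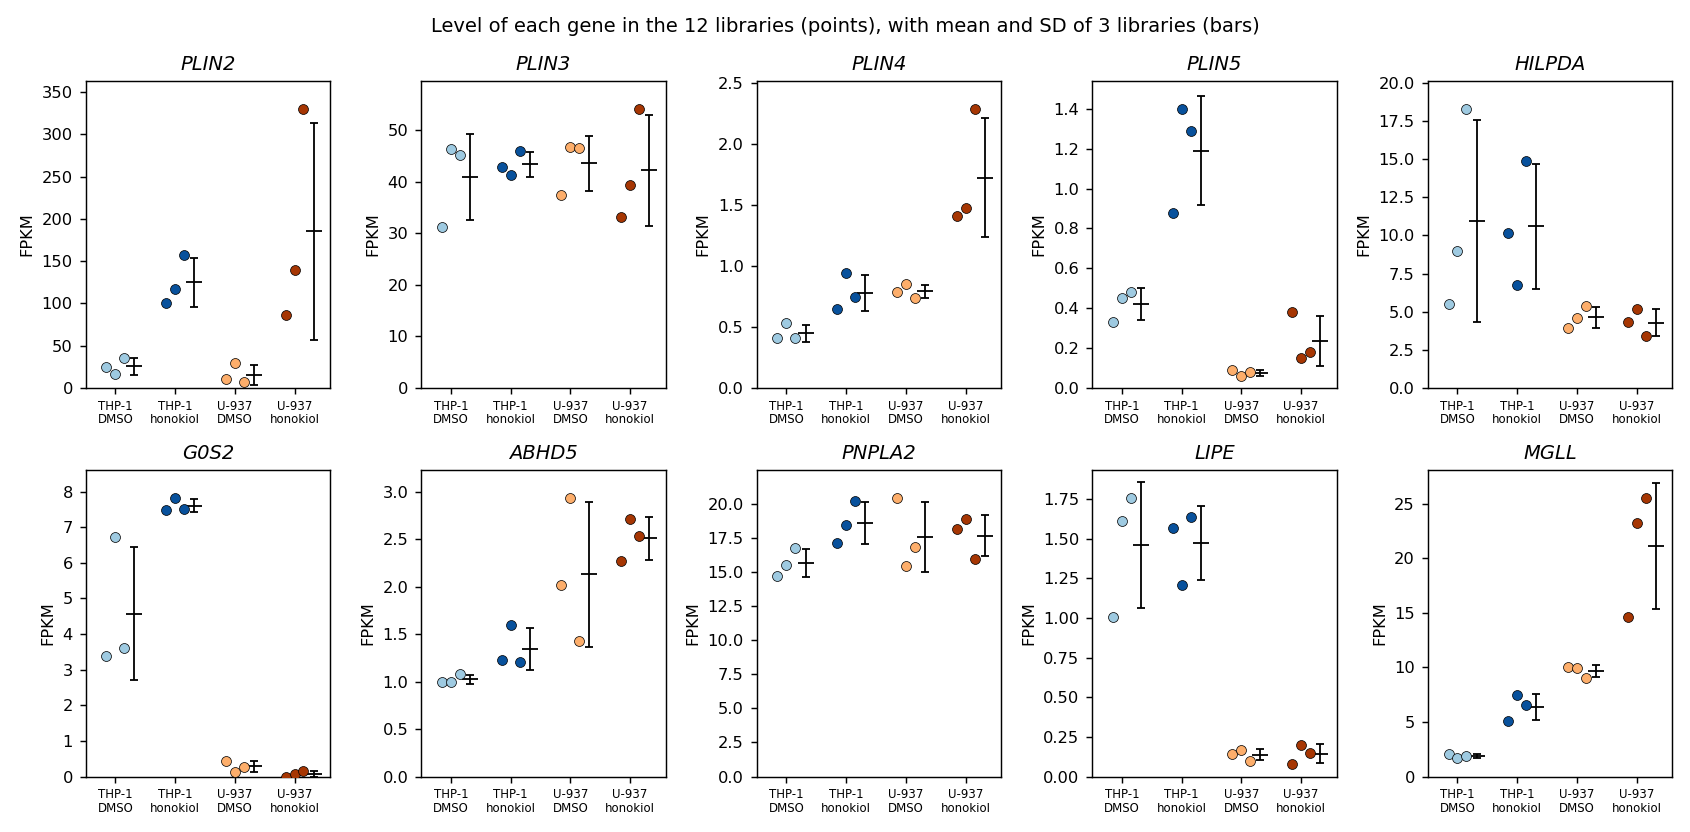
Level of each of the 10 genes in FPKM (vertical axes, linear, from 0) in the 12 libraries, grouped by line and treatment. Points are libraries, and bars give the mean and SD of 3 libraries. PLIN2 and MGLL have all honokiol points above the DMSO points in both lines, while PLIN3 and HILPDA overlap.

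The composition of the perilipin messages was set by PLIN2 and PLIN3. Of the summed FPKM of the 4 perilipins, PLIN2 made up 37.4% ± 10.2 in THP-1 DMSO and 73.0% ± 3.56 in THP-1 honokiol (SD, n = 3). Its U-937 share averaged 23.7% ± 12.9 under DMSO and 77.9% ± 7.12 under honokiol (SD, n = 3). PLIN3 held 61.3% and 74.7% with DMSO in THP-1 and U-937, and 25.9% and 21.1% with honokiol. PLIN4 and PLIN5 together stayed small, each with a mean share of at most 1.37% in any group. The summed level was 67.1 ± 12.9 FPKM and then 170.3 ± 31.1 FPKM in THP-1, and 59.8 ± 15 FPKM and then 229.5 ± 140 FPKM in U-937 (SD, n = 3). The leading coat message was thus PLIN3 in all 6 DMSO libraries and PLIN2 in all 6 honokiol libraries.

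**Figure D2:**
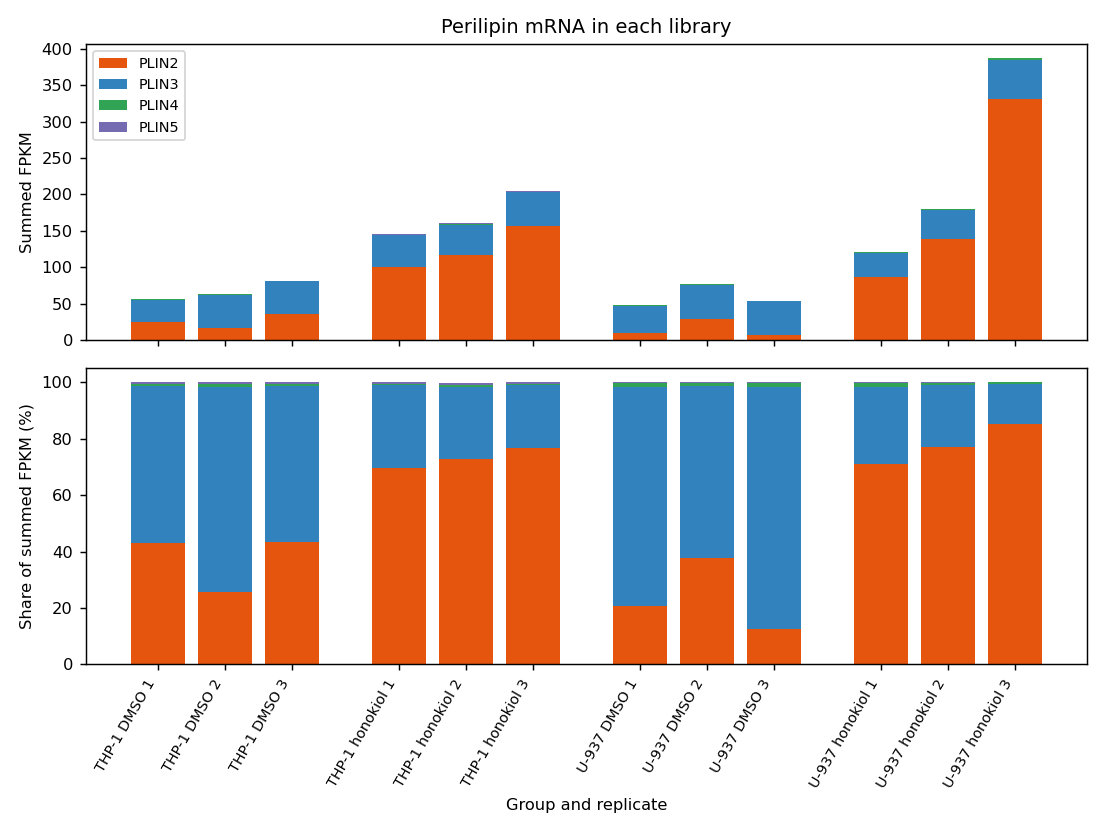
Summed FPKM of PLIN2, PLIN3, PLIN4 and PLIN5 (upper panel) and the share of each in that sum in percent (lower panel), with 1 bar for each of the 12 libraries. The PLIN2 share is 12.6% to 43.4% in the DMSO libraries and 69.5% to 85.4% in the honokiol libraries.

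Of the regulators, HILPDA, a hypoxia-induced inhibitor of PNPLA2, overlapped between treatments. THP-1 had 5.50, 9.0 and 18.3 FPKM with DMSO and 10.2, 6.75 and 14.9 FPKM with honokiol, and U-937 had 3.91, 4.61 and 5.34 FPKM and then 4.30, 5.15 and 3.38 FPKM. The log2 differences were -0.08 ± 0.423 and -0.20 ± 0.211 (SE, n = 3 per group). G0S2, the other inhibitor, had 3.39, 6.73 and 3.61 FPKM in THP-1 DMSO and 7.48, 7.83 and 7.51 FPKM in THP-1 honokiol, without overlap and with a log2 difference of 0.69 ± 0.289 (SE, n = 3 per group). U-937 hardly held the G0S2 message, with 0.44, 0.13 and 0.28 FPKM with DMSO and 0, 0.06 and 0.16 FPKM with honokiol. These U-937 values rest on 10 to 27 and 0 to 10 estimated counts, and 1 fragment is mostly worth 4 counts.

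ABHD5, the activator of PNPLA2, had 1.0, 1.0 and 1.08 FPKM in THP-1 DMSO and 1.23, 1.60 and 1.21 FPKM in THP-1 honokiol. In U-937 it had 2.02, 2.94 and 1.43 FPKM with DMSO and 2.27, 2.72 and 2.54 FPKM with honokiol. The THP-1 groups did not overlap, the U-937 groups did, and the log2 differences were 0.33 ± 0.194 and 0.15 ± 0.261 (SE, n = 3 per group). ABHD5 shares 170 exon bases with ANO10 on the opposite strand, a gene listed at up to 5.71 FPKM.

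PNPLA2, which opens triglyceride breakdown, stayed between 14.7 and 20.4 FPKM over the 12 libraries. THP-1 had 14.7, 15.5 and 16.7 FPKM with DMSO and 17.1, 18.5 and 20.2 FPKM with honokiol, and U-937 had 20.4, 15.4 and 16.8 FPKM and then 18.1, 18.9 and 16.0 FPKM. The honokiol libraries of THP-1 lay just above its DMSO libraries, the nearest pair differing by 1.02 times. The log2 differences were 0.19 ± 0.122 in THP-1 and -0.09 ± 0.161 in U-937 (SE, n = 3 per group). The summed FPKM of both inhibitors per FPKM of PNPLA2 was 0.977 ± 0.354 in THP-1 DMSO and 0.977 ± 0.167 in THP-1 honokiol, and it was 0.285 ± 0.0636 in U-937 DMSO and 0.245 ± 0.0277 in U-937 honokiol (SD, n = 3).

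LIPE, which splits diglycerides, had 1.01, 1.61 and 1.76 FPKM in THP-1 DMSO and 1.57, 1.21 and 1.64 FPKM in THP-1 honokiol, a log2 difference of -0.03 ± 0.240 (SE, n = 3 per group). In U-937 it was at 0.14, 0.17 and 0.10 FPKM with DMSO and 0.08, 0.20 and 0.15 FPKM with honokiol. The groups overlapped in both lines.

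MGLL, which splits monoglycerides, the endocannabinoid 2-arachidonoylglycerol among them, was the lipase that differed by treatment. Its level in THP-1 was 2.06, 1.68 and 1.85 FPKM with DMSO and 5.11, 7.5 and 6.60 FPKM with honokiol. In U-937 it was 10.0, 9.95 and 9.0 FPKM with DMSO and 14.6, 23.2 and 25.6 FPKM with honokiol. Neither line showed overlap, and the level in THP-1 honokiol stayed under that of U-937 DMSO in every library. The log2 differences were 1.71 ± 0.190 in THP-1 and 1.04 ± 0.213 in U-937 (SE, n = 3 per group). Leaving out 1 library at a time gave 1.59 to 1.85 in THP-1 and 0.865 to 1.25 in U-937. MGLL lies on the minus strand of chromosome 3, from 127689062 to 127823250.

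Counted against all genes, the honokiol values of the 10 genes read as follows, and nothing is drawn from the counts because the genes were listed with them known. With edgeR's quasi-likelihood test, an adjusted p under 0.05 and a log2 difference over 1 in size, 1 of 10 genes was called in THP-1 (MGLL), where 0.0411% of the 14600 genes tested were called. In U-937, 0 of 7 were called, beside 0.0947% of 13726 genes. DESeq2 called 3 in each line, where it called 250 of the 14600 genes in THP-1 and 223 of the 13726 in U-937. At an unadjusted p under 0.05 with the same fold, 3 genes passed in THP-1 (PLIN2, PLIN5 and MGLL), beside 2.79% of all genes, and 3 in U-937 (PLIN2, PLIN4 and MGLL), beside 2.53%. Without overlap and higher with honokiol were 7 of 10 in THP-1, beside 13% of all genes, and 3 of the 7 tested in U-937, beside 16.7%. The MGLL call in THP-1 was lost without any 1 of the DMSO libraries or without honokiol replicate 2 or 3. Without honokiol replicate 1 the count was 2 of 9 tested, beside 43 of all 14233 genes.

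The order of the messages by FPKM, which is scaled by transcript length, also differed between groups. In THP-1 DMSO it ran PLIN3, PLIN2, PNPLA2, HILPDA, G0S2, MGLL, LIPE, ABHD5, PLIN4 and PLIN5. Neighbours overlapped there except that G0S2 lay above MGLL and ABHD5 above PLIN4 in every library. In THP-1 honokiol, PLIN2, PLIN3 and PNPLA2 were the first 3 and each lay above the next in every library, and MGLL was sixth, overlapping G0S2. In U-937 DMSO the order was PLIN3, PNPLA2, PLIN2, MGLL, HILPDA, ABHD5, PLIN4, G0S2, LIPE and PLIN5, and the pairs PNPLA2 and PLIN2, PLIN2 and MGLL, and G0S2 and LIPE overlapped. In U-937 honokiol PLIN2 and PLIN3 led without overlap, MGLL and PNPLA2 followed and overlapped each other, and PLIN5, LIPE and G0S2 came last and overlapped.

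The lines were also set side by side without honokiol. U-937 DMSO held more MGLL, ABHD5 and PLIN4 and less LIPE, G0S2, PLIN5 and HILPDA than THP-1 DMSO in every library, while the PLIN2, PLIN3 and PNPLA2 libraries of the lines overlapped. Over all 16283 genes, 27.7% were higher and 29% lower in U-937 DMSO without overlap, and nothing is read from the counts. The nearest HILPDA libraries of the lines differed by only 1.03 times. The log2 differences below are U-937 minus THP-1, from 1 edgeR fit of the 12 libraries with 3 per group. Of the 10 genes, 6 passed an adjusted p under 0.05 and the fold limit, 2 higher and 4 lower in U-937, where 34% of all 16283 genes did (14.4% higher and 19.7% lower). G0S2 and LIPE passed the FPKM limit through THP-1 libraries alone, and PLIN5 through the honokiol libraries of THP-1, so their differences were favoured by the limit.

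Among the lipases, MGLL averaged 1.86 FPKM in THP-1 DMSO and 9.66 FPKM in U-937 DMSO, a log2 difference of 2.32 ± 0.221 (SE). LIPE averaged 1.46 and 0.137 FPKM, a log2 difference of -3.42 ± 0.374 (SE). PNPLA2 averaged 15.6 and 17.6 FPKM, a log2 difference of 0.13 ± 0.140 (SE).

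Among the regulators, G0S2 averaged 4.58 FPKM in THP-1 and 0.283 FPKM in U-937, a log2 difference of -4.00 ± 0.682 (SE). HILPDA averaged 10.9 and 4.62 FPKM, a difference of -1.27 ± 0.375 (SE) that became -0.72 without THP-1 DMSO replicate 3. ABHD5 averaged 1.03 and 2.13 FPKM, and its difference of 1.01 ± 0.243 (SE) sat at the fold limit. It was under that limit in 10 of 22 alternatives, with values from 0.60 to 1.24 over all of them, and was 0.72 without U-937 DMSO replicate 2.

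Among the coats, the log2 difference was -2.47 ± 0.400 for PLIN5, 0.77 ± 0.255 for PLIN4 and 0.05 ± 0.179 for PLIN3 (SE). PLIN2 differed by -0.77 ± 0.555 (SE), and by -1.61 without U-937 DMSO replicate 2, whose level was 29.1 FPKM against 10.0 and 6.83 FPKM in the others. Without the first DMSO library of both lines, those with the high mitochondrial shares, 6 of the 10 genes passed the limits, beside 5348 of all 16026 genes tested.

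**Figure D3:**
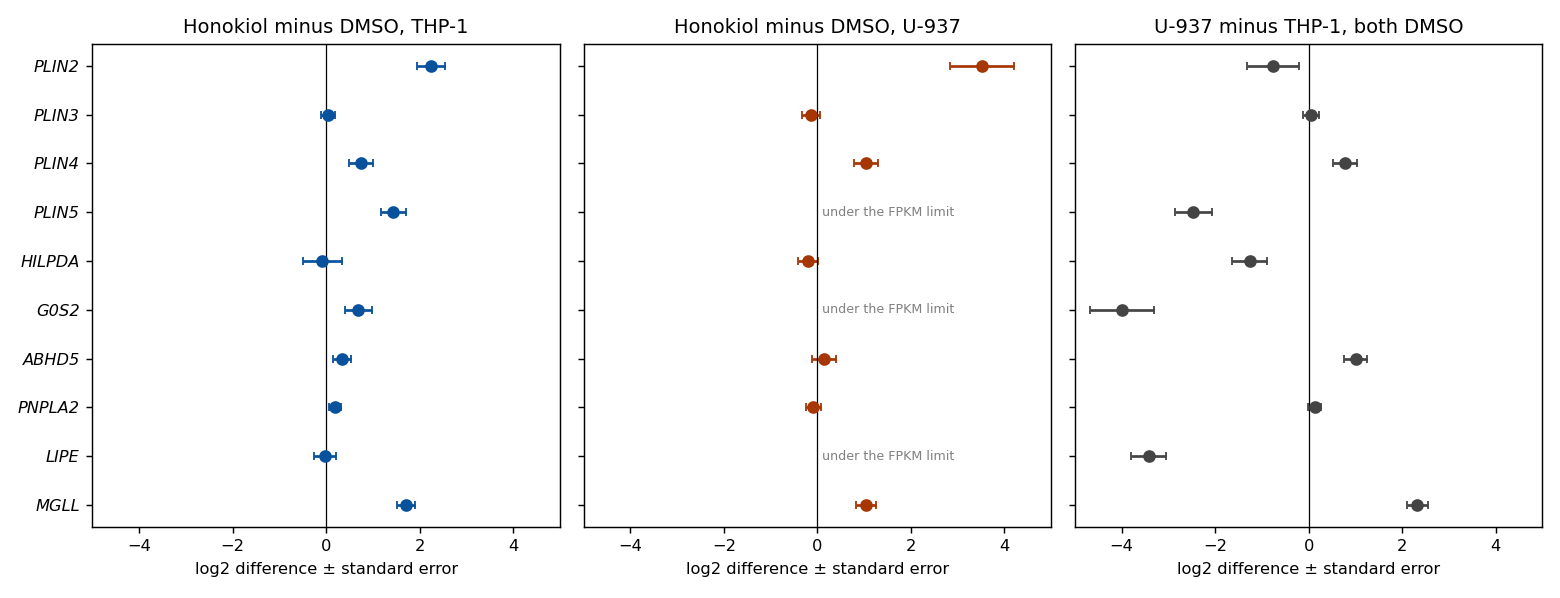
Log2 differences (horizontal axes) of the 10 genes, honokiol minus DMSO in THP-1, the same in U-937, and U-937 DMSO minus THP-1 DMSO. Points are edgeR estimates and bars are standard errors. PLIN2 reaches 2.25 and 3.52 in the honokiol panels, and in the right panel the differences run from -4.00 for G0S2 to 2.32 for MGLL.

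The honokiol differences of the lines were compared as the U-937 difference minus the THP-1 difference in the same fit. At an adjusted p under 0.05, 0 of the 10 genes passed by edgeR, where 0.111% of all genes did, and DESeq2 also gave 0. At an unadjusted p under 0.05, 2 of 10 passed (G0S2 and MGLL), beside 9.37% of all genes. The value for PLIN2 was 1.25 ± 0.782 (SE), a standard error too wide to tell equal responses from responses that differ by several times. For MGLL it was -0.69 ± 0.298 (SE). The value for G0S2, -2.69 ± 0.955 (SE), rests on the few U-937 counts given above and ran from -3.89 to -0.93 over the alternatives. The remaining 7 genes lay between -0.29 for PNPLA2 and 0.28 for PLIN4.

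The coats of fat cells were near 0. PLIN1, the adipocyte perilipin, was at 0 to 0.10 FPKM, and the lipid-transfer proteins CIDEA and CIDEC reached 0.03 and 0.22 FPKM. CIDEB, their relative in liver, averaged 4.40 FPKM in THP-1 DMSO, 5.93 FPKM in THP-1 honokiol, 10.2 FPKM in U-937 DMSO and 11.1 FPKM in U-937 honokiol. It was higher in U-937 DMSO than in THP-1 DMSO by 1.16 ± 0.136 on the log2 scale (adjusted p = 2.12e-05 by edgeR).

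Of 55 other lipid droplet genes in 5 lists, 52 had a row. These lists, which include the CIDE genes, were also drawn up with earlier results of these data known. Their counts, medians and p-values are therefore a description, and nothing is read from them. With honokiol edgeR called 0 of 44 tested in THP-1 and 0 of 40 in U-937, while DESeq2 called 2 and 0, beside 250 and 223 of all genes. At an unadjusted p under 0.05 of any size, 11 passed in THP-1 (8 higher and 3 lower), beside 13.1% of all genes (6.84% higher and 6.22% lower). In U-937, 12 passed (11 higher and 1 lower), beside 16.7% (8.25% higher and 8.44% lower). The median log2 difference over the tested genes of the lists was 0.11 for THP-1 and 0.18 for U-937, and over all genes it was -0.001 and 0.016.

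By list, fatty acid uptake and binding had 2 of 10 at an unadjusted p under 0.05 in THP-1 and 4 of 10 in U-937, each higher with honokiol. Other lipases and ester hydrolases had 3 of 10 and 2 of 7, also higher. Triglyceride and sterol ester synthesis had 2 of 12, 1 in each direction, and 2 of 11, both higher. Other coats and droplet surface proteins had 2 of 7 (1 higher) and 3 of 7 (2 higher), and droplet formation had 2 of 5 (1 higher) and 1 of 5 (higher).

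An unadjusted p under 0.05 with a log2 difference over 1 was reached by 2 of 44 genes in THP-1 (FABP4 and PNPLA3), beside 2.79% of all genes. In U-937 it was reached by 1 of 40 (FABP4), beside 2.53%. FABP4, a fatty acid carrier of fat cells and macrophages, was at 0.07, 0.75 and 1.67 FPKM in THP-1 DMSO and 2.39, 22.0 and 32.1 FPKM in THP-1 honokiol, in rising order of level. In U-937 it was at 0, 0.18 and 2.30 FPKM with DMSO and 5.44, 5.69 and 47.9 FPKM with honokiol. The libraries did not overlap, but the log2 differences of 4.43 ± 1.13 (adjusted p = 0.214 by edgeR) and 4.49 ± 1.5 (adjusted p = 0.212 by edgeR) did not pass the test. In both lines FABP4 met the FPKM limit only with its honokiol libraries, so these differences were favoured by the limit. The U-937 libraries with the highest FABP4, DMSO replicate 2 and honokiol replicate 3, were those with the highest PLIN2. In THP-1, DMSO replicate 3 was highest for both genes, but among the honokiol libraries FABP4 was highest in replicate 2 and PLIN2 in replicate 3. PNPLA3, a lipase-like droplet protein, was at 3.43, 3.89 and 4.67 FPKM in THP-1 DMSO and 8.68, 9.12 and 9.29 FPKM in THP-1 honokiol, with a log2 difference of 1.12 ± 0.151 (adjusted p = 0.0607 by edgeR). It was listed at 0 in all 3 U-937 DMSO libraries and at no more than 0.02 FPKM in U-937 honokiol.

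**Figure D4:**
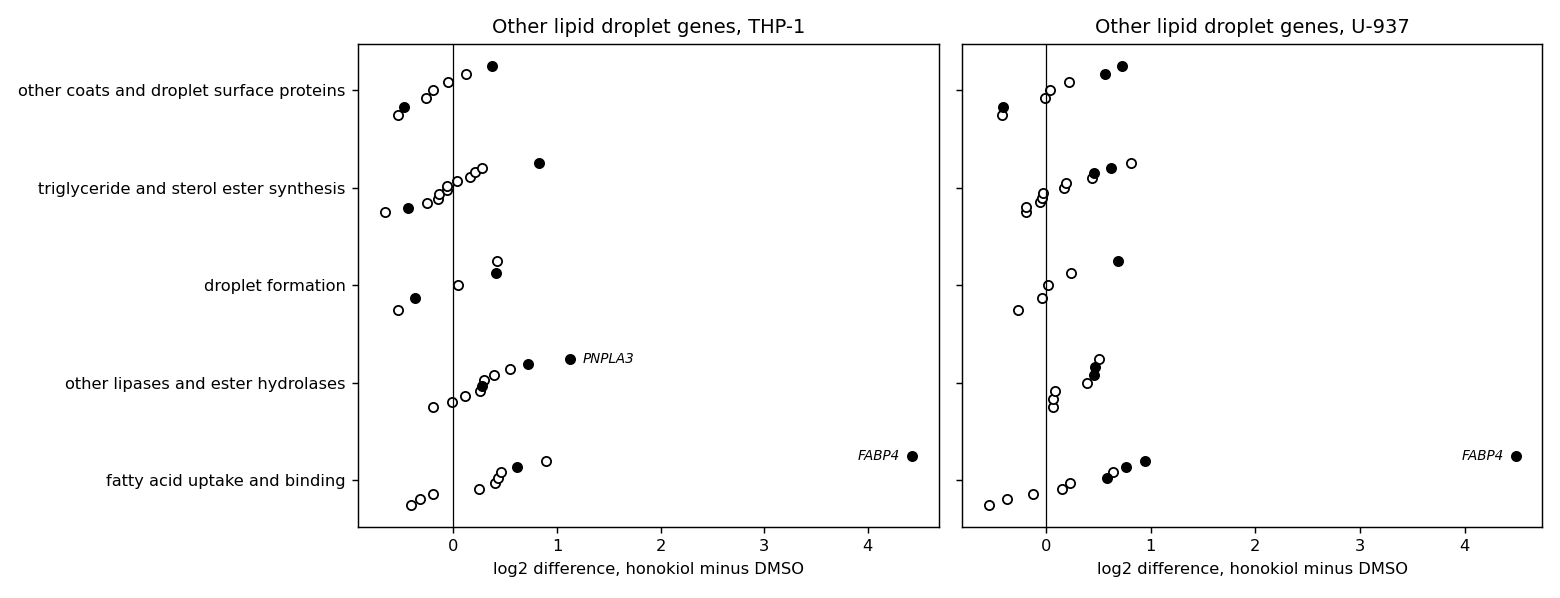
Log2 differences between honokiol and DMSO (horizontal axes) of the tested genes of the 5 other lipid droplet lists in THP-1 (left) and U-937 (right). Each point is a gene, and filled points have an unadjusted p under 0.05 by edgeR. FABP4 lies at 4.43 and 4.49, and the list medians lie between -0.19 and 0.41.

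Between the lines without honokiol, 18 of the 44 other lipid droplet genes were called, 10 higher and 8 lower in U-937, beside the 34% over all genes. Of the 8 lower, LPIN3, PNPLA3, PNPLA4 and LPL averaged at most 0.04 FPKM in U-937 DMSO and passed the FPKM limit through THP-1 libraries alone, so their calls were favoured by the limit. These names and the 4 that follow, PNPLA3 apart, were chosen after their values were seen. DGAT1, which makes triglyceride, averaged 4.14 FPKM in THP-1 and 11.3 FPKM in U-937, a log2 difference of 1.42 ± 0.198 (adjusted p = 7.99e-05 by edgeR). The fatty acid receptor CD36 averaged 0.50 and 4.92 FPKM, a difference of 3.23 ± 0.522 (adjusted p = 0.000245 by edgeR). The fatty acid carrier FABP5 averaged 26.5 and 104.4 FPKM, a difference of 1.93 ± 0.315 (adjusted p = 0.00027 by edgeR), and its relative FABP3 averaged 8.30 and 0.657 FPKM, a difference of -3.68 ± 0.443 (adjusted p = 2.55e-05 by edgeR). In the difference of the responses 0 of 44 were called, and 6 had an unadjusted p under 0.05, beside 9.37% of all genes.

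The genes most like PLIN2 over the 12 libraries were CREB3L3, FABP4, NLRC4, VWA5A and SLC25A20. Likeness was the root mean square difference between log2(FPKM + 0.5) values centred on their mean. It was taken over 11518 named genes with a mean of at least 1 FPKM over the 12 libraries. Its value was 0.658 for CREB3L3, 0.928 for FABP4, 0.932 for NLRC4, 0.957 for VWA5A and 0.995 for SLC25A20. CREB3L3 and FABP4 averaged under 1 FPKM in both DMSO groups and met this limit only with their honokiol libraries, so their places were favoured by the limit. CREB3L3, a membrane-bound transcription factor, averaged 0.52, 2.15, 0.443 and 8.40 FPKM in THP-1 DMSO, THP-1 honokiol, U-937 DMSO and U-937 honokiol. PLIN2 itself varied by 1.65 on this scale, so the likeness was loose. MGLL had closer neighbours, MERTK at 0.245, BLVRB at 0.311, TBC1D2 at 0.316, ASB2 at 0.33 and EEPD1 at 0.337, beside its own variation of 1.16. MERTK, a receptor for the uptake of dead cells, averaged 1.85, 5.79, 8.73 and 15.6 FPKM in the same 4 groups. The 12 libraries share lines and treatments, so these values describe the pattern of the groups.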

How the data were processed

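The 12 libraries held poly(A) mRNA, 3 per line and treatment. The deposited table gives for each gene an FPKM value, which the authors scaled by the length of the transcript and the size of the library, and an estimated count, which the authors did not normalize. The submitters' processing notes name HISAT2 2.0, StringTie 1.3.0, Bowtie 0.12.2 and the mouse build mm8, but 35762 of 36866 genes were found in GENCODE 29 (human, GRCh38), all on the same chromosome, and 92.0% of those found had start and end within 1000 bases. The labels and the study's methods name different sequencing instruments, and the series text speaks of a microarray. Whether counting used strand is not given in the sources used here, so reads of genes that overlap on opposite strands (PLIN3, PLIN4, ABHD5, PNPLA2 and LIPE) cannot be told apart. HILPDA shares 175 and 186 exon bases with 2 transcripts on its own strand. The value of 4 counts is frequent (17264 times, against 6764 for 3 and 4016 for 5), so a fragment is mostly worth 4 counts and the sums overstate the depth.

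Genes that reached 0.5 FPKM in 3 or more libraries of a fit were tested with edgeR 4.0.16 (R 4.3.3, quasi-likelihood test, TMM, Benjamini-Hochberg), in 6 libraries per line for honokiol and in 12 for contrasts of the lines, with no covariate. The estimated counts are whole numbers and entered as deposited. A gene was called at an adjusted p under 0.05 and a log2 difference over 1 in size (no fold limit for the difference of responses). Standard errors are the log2 difference over the root of its F value. The scripts were tested on simulated data. The 10 genes and all lists were chosen with earlier results of these data known. Named are the 10 genes, other lipid droplet genes with an unadjusted p under 0.05 and a log2 difference over 1 in a line, PLIN1 and the CIDE genes, and the 5 genes most like PLIN2 and MGLL. The 10 genes carry no p-value. LPIN3, PNPLA4, LPL, DGAT1, CD36, FABP5 and FABP3 are outside this rule and were chosen after their values were seen. Promoters were taken from RefSeq (GRCh38.p14). Alternatives were another scaling, filters, DESeq2 1.42.0, limma 3.58.1, a replicate block and leaving out 1 library.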

Additional observations from a re-analysis of the deposited data

How the results depend on the processing

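The count of the 10 genes called with honokiol depended on the test. In THP-1 it was 1, and it was 0 with no filter on low values, with an FPKM of at least 1 and with limma on log2(FPKM + 0.5), log2(FPKM + 0.1) or log2(FPKM + 1), 3 with DESeq2, and 0 to 2 when 1 library was left out. Over all genes, leaving out 1 library gave 0 to 43 calls in THP-1. In U-937 the count of the 10 genes was 0. It was 2 with 1 fit of all 12 libraries, beside 108 of all 16283 genes, and 3 with DESeq2. For the other lipid droplet genes in THP-1 the count was 0, and 2 with DESeq2. Over all genes the calls were 6 and 13 with edgeR and 250 and 223 with DESeq2, so DESeq2 was the more lenient test here. Between the lines without honokiol 6 of the 10 genes were called, beside 5542 of all 16283 genes. The count was 3 with limma on log2(FPKM + 1), where low genes have compressed differences, beside 3115 of all genes. When 1 library was left out the count was 4 to 6, beside 5334 to 5500 of all genes. The difference of the responses had 0 calls among the 10 genes under all 22 alternatives.

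Values near 0 changed sign. Between the lines, leaving out 1 library gave -0.075 to 0.117 for PLIN3 and -0.041 to 0.224 for PNPLA2, and without the first DMSO library of both lines, an alternative chosen after seeing the data, they were -0.003 and -0.032. In the difference of the responses, leaving out 1 library gave -0.43 to 0.31 for PLIN5, -0.69 to 0.18 for HILPDA, -0.44 to 0.09 for ABHD5 and -0.38 to 0.23 for LIPE. Without both first DMSO libraries HILPDA was at 0.086 and LIPE at 0.165, and limma gave PLIN5 -0.53, -0.43 and -0.42 with pseudocounts of 0.5, 0.1 and 1. The cause of these changes was not tested.

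Within a line, the replicate numbers gave no clear pairing of DMSO with honokiol libraries. A batch shared by number between the lines was not tested, and DMSO replicate 1 stood apart in both lines by its mitochondrial share. Deviations of same-numbered libraries from their group means correlated at -0.107, -0.155 and 0.094 in THP-1 and at -0.121, -0.104 and -0.108 in U-937, and not every library correlated best with its own number. With the replicate block, the 10 genes gave 0 calls in THP-1, 0 in U-937, 5 between the lines and 0 in the difference of the responses. Over all genes the block left 0 calls in each line, 5437 of 16283 between the lines and 0 in the difference of the responses. Depth limits G0S2 in U-937 most, where a library holds 0 to 27 estimated counts.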
